A study of Mus musculus with 6 samples.

Results

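Cfi, Serping1, Cd55 and Cd59a encode regulators that hold the complement cascade in check. Their rows were found in the deposited count table by gene symbol, after removal of a trailing transcript suffix, and all 4 were present among 30510 features. The genes were listed by what they encode, with earlier results of these data known. Total RNA of whole retina had been sequenced from wild-type mice of 2 inbred strains, C57BL/6J (B6) and DBA/2J (D2), with 3 libraries of each strain. Per the labels, the mice were 60 to 100 days old, the retinas of both eyes were taken and RNA was isolated in batches that are not assigned to libraries. Separate mice are not stated for the replicates of either strain. P-values therefore reflect only how far libraries of the same strain lie apart, and that scatter may be technical. The spread of each gene was drawn toward a trend over all genes in the fit. DBA/2J mice are used as a model of inherited pigmentary glaucoma that develops with age, and they carry an inherited lack of complement component C5.

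Complement is a set of blood and tissue proteins that tag surfaces with fragments of C3 and C4 and can end in a membrane pore, the membrane attack complex. Regulators act at successive steps. C1 inhibitor, the product of Serping1, blocks the proteases that start the classical and lectin pathways. Factor I, the product of Cfi, cleaves C3b and C4b into fragments that no longer build convertases, and it needs cofactor proteins to do so. CD55, or decay-accelerating factor, is a membrane protein that takes convertases apart. CD59, of which Cd59a is the broadly expressed mouse gene, is a membrane protein that stops the pore from assembling. In the retina, complement components are made locally by glia, microglia and the pigment epithelium behind the photoreceptors, and the regulators are known for limiting complement at these surfaces.

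The regulators differed between the strains in opposite directions. Cfi was 6.01-fold lower and Serping1 2.82-fold lower in D2 than in B6, Cd59a was 1.34-fold higher, and Cd55 did not pass the test. So 3 of 4 passed at an adjusted p under 0.05 in edgeR's quasi-likelihood test, beside 29.7% of the 18588 genes tested (5524 genes). Lower in D2 were 2 of 4 beside 15.3% of all genes (2838), and higher was 1 of 4 beside 14.5% (2686). The libraries of the strains did not overlap for 3 of 4, as for 42.3% of all tested genes (7863). A list of 4 members is too short to be read against these shares. The median log2 fold change of all tested genes was 0.00 and their median absolute change 0.13, and 1.03% of tested genes changed more than Cfi in absolute terms, 2.68% more than Serping1 and 16.8% more than Cd59a.

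The B6 libraries held 31305777 to 43719666 counts and the D2 libraries 29417002 to 34478751. Levels are given as CPM, the count of a gene relative to the scaled total of its library, with the mean ± SD of 3 libraries, and log2 fold changes are D2 minus B6 with their standard error (SE). The markers of rod photoreceptors summed to 47608 to 49126 CPM in B6 and 41384 to 43464 CPM in D2 (1 of 5 lower, none higher), so the defining cells of retina were present in every library. Because these are bulk samples, fewer cells of a type and less RNA per cell cannot be told apart in any result below. Whether reads of D2 aligned to the mouse build mm10 as well as reads of B6 was not tested.

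Serping1 (ENSMUSG00000023224, GRCm38 chr2:84765387-84775444, minus strand, protein coding) was counted 243, 202 and 140 times in B6 replicates 1, 2 and 3 and 64, 56 and 50 times in D2 replicates 1, 2 and 3. Scaled, these were 5.62, 4.86 and 4.50 CPM in B6 and 2.22, 1.72 and 1.44 CPM in D2. Every B6 library lay above every D2 library, and replicate 1 was the highest of each strain. The mean fell from 4.99 ± 0.570 CPM (B6) to 1.79 ± 0.395 CPM (D2, n = 3 each), a log2 fold change of -1.50 ± 0.16 (SE) with a 95% interval of -1.83 to -1.16 and an adjusted p of 2.96e-06 (edgeR quasi-likelihood, Benjamini-Hochberg). No annotated gene overlapped Serping1, and none of its 31-base words occurred in the transcripts of another gene.

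Cfi (ENSMUSG00000058952, GRCm38 chr3:129835884-129875332, plus strand, protein coding) was counted 110, 89 and 65 times in B6 and 7, 18 and 11 times in D2. Scaled, these were 2.54, 2.14 and 2.09 CPM in B6 and 0.243, 0.553 and 0.316 CPM in D2. All B6 libraries lay above all D2 libraries, and D2 replicate 2 was the highest of its strain. The level fell from 2.26 ± 0.248 CPM to 0.371 ± 0.162 CPM, a log2 fold change of -2.59 ± 0.25 (SE) with a 95% interval of -3.12 to -2.06 and an adjusted p of 1.33e-06 (edgeR quasi-likelihood). The D2 counts were small: exact Poisson 95% intervals, which cover counting error only, were 2.81 to 14.4 for the count of 7, 10.7 to 28.4 for 18 and 5.49 to 19.7 for 11. Even the upper bound of the highest D2 library, at 28.4 counts, lay under the 65 counts of the shallowest B6 library, which had a total similar to that of D2. No annotated gene overlapped Cfi, and it shared no 31-base word with another gene.

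**Figure D1:**
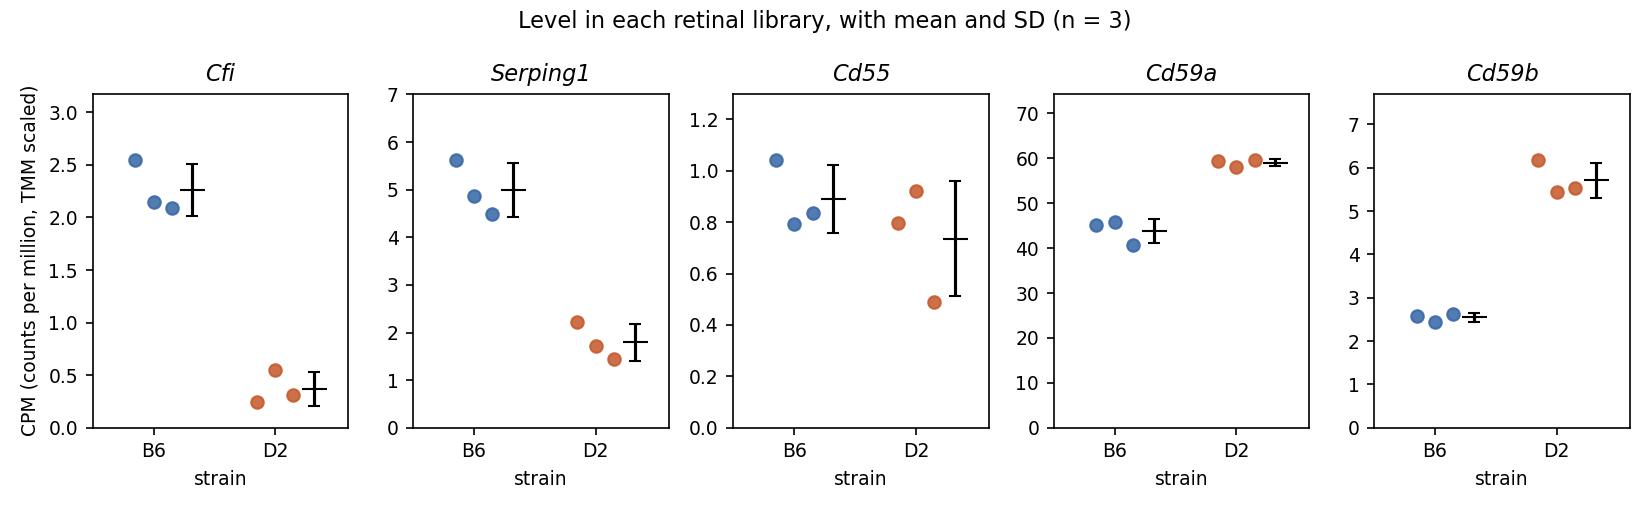
Level in CPM (vertical axis, linear from 0 and different for each gene) of Cfi, Serping1, Cd55, Cd59a and the paralogue Cd59b, with 1 point per library of B6 and D2 and, beside the points, the mean and SD of 3 libraries. The B6 points of Cfi (2.09 to 2.54 CPM) and Serping1 (4.50 to 5.62 CPM) sit above all D2 points, those of Cd59a (40.7 to 45.8 CPM) and Cd59b sit below all D2 points, and the strains overlap for Cd55.

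Cd55 (ENSMUSG00000026399, GRCm38 chr1:130439027-130462744, minus strand, protein coding) was the least abundant of the 4 per length. It was counted 45, 33 and 26 times in B6 and 23, 30 and 17 times in D2, which gave 1.04, 0.794 and 0.836 CPM in B6 and 0.797, 0.922 and 0.489 CPM in D2. The strains overlapped, with D2 replicate 3 the lowest of the 6. The means were 0.890 ± 0.132 CPM (B6) and 0.736 ± 0.223 CPM (D2), a log2 difference of -0.29 ± 0.26 (SE) with an adjusted p of 0.452 (edgeR quasi-likelihood). The 95% interval ran from -0.85 to 0.27, so the changes seen for Serping1 (-1.50) and Cd59a (0.43) both lay outside it. Of the words of Cd55, 13.0% occurred in another gene, 11.2% in its tandem paralogue Cd55b, and an antisense gene on the plus strand, Gm16083, overlapped it. Whether counting used strand was not given in the sources used here. Cd55b, the paralogue known mainly from testis, was counted 1, 1 and 0 times in the B6 libraries and 2, 1 and 0 times in those of D2, and was not tested.

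Cd59a (ENSMUSG00000032679, GRCm38 chr2:104095801-104115354, plus strand, protein coding) was counted 1948, 1901 and 1266 times in B6 and 1714, 1890 and 2069 times in D2. Scaled, these were 45.0, 45.8 and 40.7 CPM in B6 and 59.4, 58.1 and 59.5 CPM in D2. The D2 libraries lay close together and above every B6 library, of which replicate 3 was the lowest. The level rose from 43.8 ± 2.74 CPM to 59.0 ± 0.790 CPM, a log2 fold change of 0.43 ± 0.05 (SE) with a 95% interval of 0.33 to 0.52 and an adjusted p of 4.67e-06 (edgeR quasi-likelihood).

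Cd59a lies beside its tandem copy Cd59b (ENSMUSG00000068686, chr2:104069849-104091187, plus strand), which in mouse is expressed mainly in testis. A stretch of coding sequence from each is shown to let the similarity of the copies be seen, since their counts are compared below. Both are 150 bases of the GRCm38 plus strand, bases 99 to 248 of 369 in transcript Cd59a-201 (chr2:104110777-104110844 joined to chr2:104113975-104114056) and bases 96 to 245 of 387 in Cd59b-201 (chr2:104081031-104081098 joined to chr2:104084422-104084503), with capitals at the bases that differ:
Cd59a: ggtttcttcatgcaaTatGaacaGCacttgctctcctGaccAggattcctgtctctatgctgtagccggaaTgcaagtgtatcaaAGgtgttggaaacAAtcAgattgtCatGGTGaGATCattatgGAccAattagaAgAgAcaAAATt
Cd59b: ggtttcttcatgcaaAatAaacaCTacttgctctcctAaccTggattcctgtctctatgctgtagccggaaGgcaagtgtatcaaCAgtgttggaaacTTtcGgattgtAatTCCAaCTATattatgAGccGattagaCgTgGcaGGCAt
In this window 119 of 150 bases were identical and 31 differed. Over 354 aligned coding bases 301 were identical (85.03%), with a longest identical run of 47 bases. The window was chosen as the gap-free stretch of 150 bases with the most identical bases. It is less alike than the whole alignment and does not hold the run of 47 bases in full. Over whole transcripts, 8.23% of the 31-base words of Cd59a occurred in Cd59b and 11.3% of those of Cd59b in Cd59a, so values of Cd59b in particular are uncertain.

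Cd59b was counted 112, 101 and 82 times in B6 and 178, 177 and 192 times in D2, or 2.59, 2.43 and 2.64 CPM against 6.17, 5.44 and 5.52 CPM, with no overlap. It rose from 2.55 ± 0.107 CPM to 5.71 ± 0.399 CPM, a log2 fold change of 1.16 ± 0.11 (SE, adjusted p = 1.49e-06, edgeR quasi-likelihood). Cd59b made up 5.44%, 5.04% and 6.08% of the counts of the pair in B6 and 9.41%, 8.56% and 8.49% in D2. With both copies summed, an alternative added after the data were seen, the pair was higher in D2 by a log2 fold change of 0.48 ± 0.04 (SE, adjusted p = 8.91e-07, edgeR quasi-likelihood). A deposited table of the authors' own strain comparison gives scaled expression scores, which are not CPM. In the authors' deposited table the score of Cfi was 6.18 in B6 and 4.35 in D2 (false discovery rate 1.01e-29), that of Serping1 7.04 and 6.00 (4.95e-27), that of Cd55 5.20 and 5.09 (0.349) and that of Cd59a 9.34 and 9.61 (2.36e-21). The authors' deposited table marks Cfi and Serping1 as differentially expressed, and marks Cd55, Cd59a and Cd59b as not. Cd59a and Cd59b are marked so although their false discovery rates lie under 0.05. The mark therefore cannot be set beside the calls made from the counts. In the authors' deposited table Cd59b went the other way than in the counts. Its score was 6.31 in B6 and 6.01 in D2 (false discovery rate 0.00488). That difference of -0.30 was smaller than the deposited standard error of D2, 0.880, and close to that of B6, 0.298. For Cd59a the difference of 0.26 was smaller than the standard error of B6, 0.317, and larger than that of D2, 0.149. Large standard errors were not limited to the Cd59 genes. The difference of -1.83 for Cfi stood beside errors of 0.406 (B6) and 1.59 (D2), and that of -1.04 for Serping1 beside 0.471 and 0.900. How these errors relate to the false discovery rates was not tested. The cause of the opposite sign of Cd59b was not tested.

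**Figure D2:**
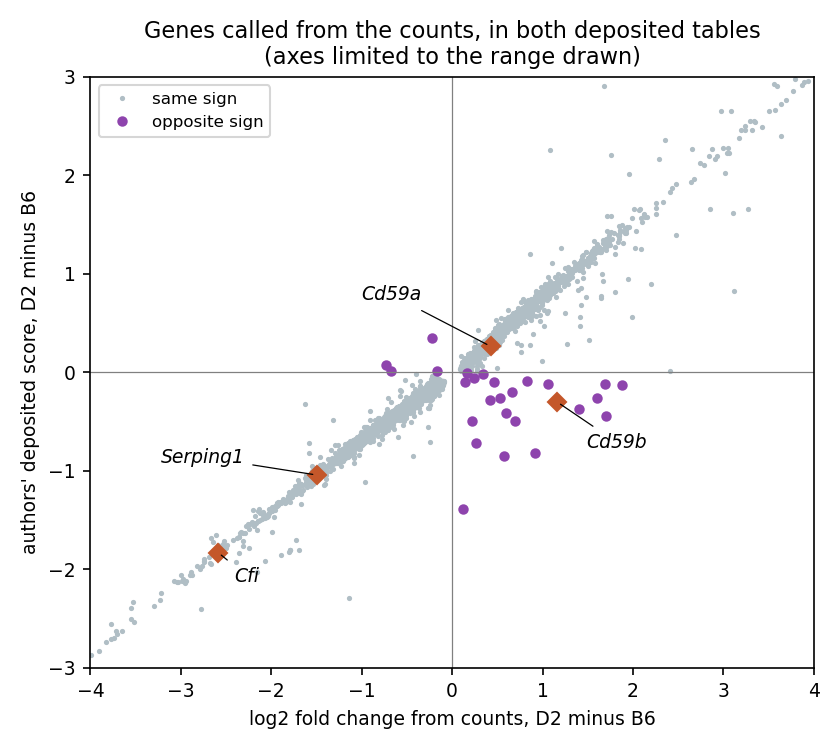
Log2 fold change from the counts (horizontal axis) against the difference in score in the authors' deposited table (vertical axis), both D2 minus B6, for genes called from the counts, with 1 point per gene and axes limited to the range drawn. Cfi, Serping1 and Cd59a (diamonds) lie on the band formed by genes of the same sign (grey), and Cd59b lies off it among the genes of opposite sign (purple), at 1.16 in the counts and -0.30 in the scores.

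Levels of different genes are compared per kilobase of exon. In B6, Cd59a stood at 24.2 ± 1.51 CPM per kilobase, Serping1 at 2.15 ± 0.245, Cfi at 1.02 ± 0.112 and Cd55 at 0.183. In D2, Cd59a stood at 32.6 ± 0.436, Serping1 at 0.771 ± 0.170, Cfi at 0.167 ± 0.0731 and Cd55 at 0.152 CPM per kilobase. In B6 each gene was separated from the next by more than the SDs, whereas in D2 Cfi and Cd55 differed by less than their spread. The membrane-bound pore inhibitor was thus the most abundant of the 4 in both strains.

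A list of 24 other complement regulators, chosen with earlier results of these data known, had 23 genes in the table and 16 tested, of which 3 were higher and 5 lower in D2 and 8 did not pass, with a median log2 fold change of -0.08 beside 0.00 over all genes. The share called, 8 of 16, stands beside 29.7% of all genes. Vtn and Clu, which encode vitronectin and clusterin, fluid-phase inhibitors of the membrane attack complex, were the most abundant members. Vtn fell from 681 ± 26.3 to 612 ± 19.3 CPM (log2 fold change -0.16 ± 0.04 SE, adjusted p = 0.0103) and Clu from 347 ± 12.8 to 242 ± 8.54 CPM (-0.52 ± 0.04 SE, adjusted p = 9.48e-08). Thrombomodulin, encoded by Thbd, an endothelial cofactor that speeds cleavage of C3b by factor I, fell from 3.91 to 2.58 CPM (-0.61, adjusted p = 0.00375). Cd93, whose product is an endothelial and myeloid surface protein once proposed as a C1q receptor, fell from 4.28 to 2.84 CPM (-0.59, adjusted p = 0.00163). Sez6l, a neuronal member of the CUB and sushi domain family, fell from 28.3 to 23.6 CPM (-0.27, adjusted p = 0.00144). Of 5 tested relatives, Sez6 rose from 40.5 to 46.5 CPM (0.20, adjusted p = 0.00217) and Csmd1 from 15.5 to 19.0 CPM (0.30, adjusted p = 0.00578). The other 3, Csmd2 (0.09, adjusted p = 0.237), Sez6l2 (0.06, adjusted p = 0.324) and Csmd3 (-0.11, adjusted p = 0.194), did not pass.

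Membrane regulators that act earlier than Cd59a, named after their values were seen, did not pass: Cd46 was 67.1 CPM in B6 and 73.2 CPM in D2 (0.13 ± 0.07 SE, adjusted p = 0.173), and Cr1l, the rodent regulator Crry, was 10.9 and 11.7 CPM (0.09 ± 0.09 SE, adjusted p = 0.507). Cd46 passed without B6 replicate 3 and without D2 replicate 3.

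Among the components that activate the cascade, most of those tested were lower in D2. Of 30 activation genes, 29 were in the table and 13 were tested, of which 8 were lower, 1 was higher and 4 did not pass, beside 15.3% of all tested genes called lower and 14.5% called higher, with a median log2 fold change of -0.81 beside 0.00 over all genes. C1qb and C1qc, chains of the C1q recognition molecule, fell by 1.39 ± 0.18 and 1.29 ± 0.14 on the log2 scale (SE, adjusted p = 2.3e-05 and 3.48e-06). C1qa, the remaining chain, named although it was ninth by adjusted p, fell by 0.40 ± 0.13 (adjusted p = 0.0358) and lost its call in 4 of 13 alternatives, under DESeq2 and without B6 replicate 1, B6 replicate 2 or D2 replicate 2. C1ra and C1s1, which encode the proteases that C1 inhibitor blocks, fell by 1.56 ± 0.25 (adjusted p = 0.000186) and 0.81 ± 0.25 (adjusted p = 0.026) on the log2 scale. They share 59.6% and 47.6% of their words with other genes, and C1s1 lost its call in 5 alternatives, under DESeq2 and without B6 replicate 2, B6 replicate 3, D2 replicate 2 or D2 replicate 3.

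C3 and C4b, whose activated fragments are what factor I cleaves, were lower too. C3 was 3.98, 2.91 and 1.70 CPM in B6 and 1.53, 1.35 and 1.35 CPM in D2, and it fell by 1.05 ± 0.25 on the log2 scale (adjusted p = 0.00437). C4b was 14.6, 13.9 and 7.14 CPM in B6 and 8.35, 6.06 and 4.26 CPM in D2, so B6 replicate 3 lay within the D2 range, and it fell by 0.97 ± 0.23 (adjusted p = 0.00507). C4b shares 48.3% of its words with other genes, and DESeq2 did not call it (adjusted p = 0.0881). Colec12, a collectin scavenger receptor, fell by 1.58 ± 0.23 (adjusted p = 8.21e-05). Masp2, a lectin pathway protease and the most abundant activation gene, was higher in D2 at 39.98 against 35.0 CPM (0.19 ± 0.05, adjusted p = 0.013), without a call when D2 replicate 2 was left out. It shares 53.3% of its words with other genes and overlaps Tardbp on the opposite strand, which was also higher in D2 (0.18 ± 0.04, adjusted p = 0.00214). Hc, which encodes C5, was counted 0, 5 and 3 times in the B6 libraries, never in D2, and was too low to test. Among the other untested activation genes, C1rb and Mbl2 are named because their strains did not overlap. C1rb was counted 12, 19 and 11 times in B6 and 3, 4 and 3 times in D2. Mbl2 went the other way, never counted in B6 and counted 6, 9 and 5 times in D2.

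Of 10 complement receptor genes 7 were tested, 2 were lower, none was higher and 5 did not pass, with a median log2 fold change of -0.19. The share called, 2 of 7, is near the 29.7% of all tested genes. C1qbp, whose product binds C1q, fell by 0.25 ± 0.07 (adjusted p = 0.0157) and Lrp1, an endocytic receptor, by 0.18 ± 0.05 (adjusted p = 0.0252) on the log2 scale, and each lost its call in 3 leave-one-out fits: C1qbp without B6 replicate 2, D2 replicate 1 or D2 replicate 2, and Lrp1 without B6 replicate 3, D2 replicate 1 or D2 replicate 3. Calr, which encodes calreticulin and was the most abundant gene of the list, was 401 CPM in B6 and 430 CPM in D2 (adjusted p = 0.0757) and passed only without D2 replicate 2. These counts are from the edgeR quasi-likelihood fit over all 18588 genes.

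**Figure D3:**
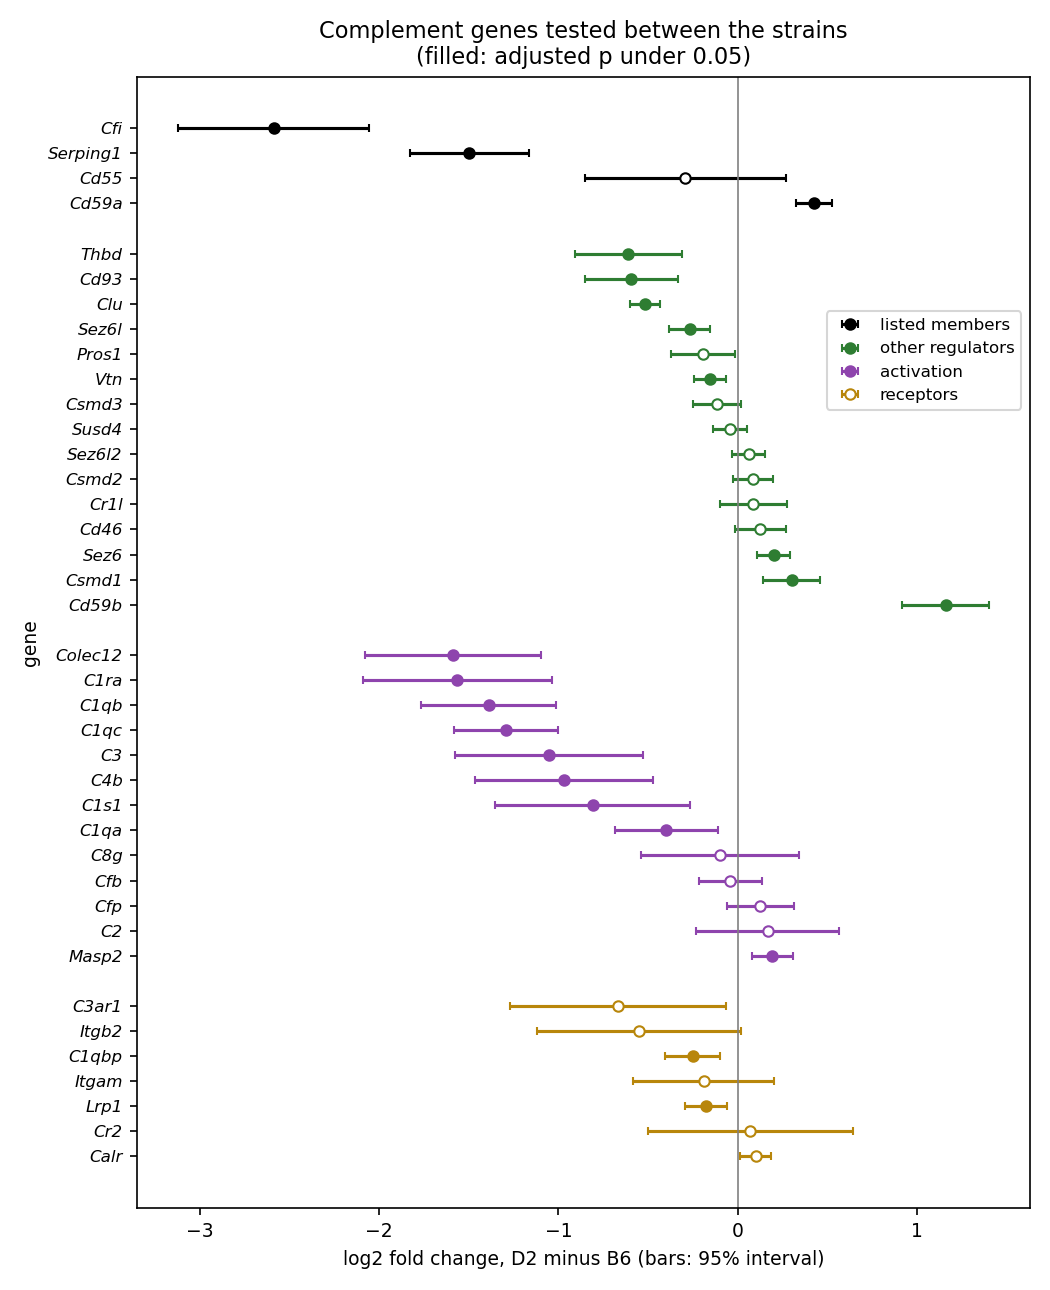
Log2 fold change, D2 minus B6 (horizontal axis), with its 95% interval for the tested members, activation genes and receptors and 15 of the 16 tested other regulators, filled where the adjusted p is under 0.05. Cfi at -2.59 is the lowest point and Cd59b at 1.16 the highest, and most activation genes lie left of 0.

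The summed level of several marker lists differed between the strains without overlap, while the counts of markers called are to be read beside the 29.7% of all tested genes called (15.3% lower, 14.5% higher), which the shares for microglia and endothelium are near. Microglia markers summed to 58.0 to 64.0 CPM in B6 and 48.8 to 49.8 CPM in D2, with 2 of 8 lower, 0 higher and none at 0. Ciliary epithelium markers summed to 245 to 251 CPM in B6 and 214 to 227 CPM in D2. Of these, 4 of 7 were lower: Gja1 (log2 fold change -1.89), Otx1 (-1.62), Wfdc1 (-0.88) and Col9a1 (-0.25). Aqp1 (-0.06), Opcml (-0.08) and Slc4a4 (0.26) did not pass. Mueller glia markers summed to 4778 to 5227 CPM in B6 and 4453 to 4837 CPM in D2, which overlapped, with 3 of 10 lower and 1 higher. Endothelial markers overlapped at 304 to 326 and 314 to 320 CPM, with 1 of 8 lower and 1 higher. Most of the endothelial sums came from Kdr, the marker called higher, whose mean rose from 182 to 200 CPM (log2 fold change 0.14). Flt1 (-0.23) was the marker called lower. Cdh5 (-0.41), Tie1 (-0.30), Pecam1 (-0.21), Ly6c1 (-0.02), Cldn5 (0.02) and Esam (0.08) did not pass. The overlap of these sums therefore cannot show whether endothelial content was alike. Astrocyte markers overlapped at 35.8 to 41.8 and 31.8 to 51.1 CPM, with 1 of 3 lower. Pericyte and smooth muscle markers summed to 110 CPM in each B6 library and 103 to 109 CPM in D2, with 3 of 7 lower. Fibroblast and meningeal markers overlapped at 22.9 to 28.7 and 21.9 to 30.5 CPM, with 1 of 4 higher. Cone markers were lower, at 1196 to 1204 against 958 to 1053 CPM (4 of 5), and erythrocyte markers were higher, at 62.3 to 96.4 against 112 to 228 CPM (3 of 4). Pigment epithelium markers ranged from 54.4 to 157 CPM in B6 and from 37.1 to 127 CPM in D2, and none of 7 passed in either direction. Lens markers ranged from 1.11 to 21.4 CPM in B6 and from 2.39 to 8.11 CPM in D2, with 1 of 3 lower, and B6 replicate 1 held the lowest value of its strain, apart from 20.5 and 21.4 CPM in the others. No marker had 0 counts in all libraries. The part of these cell types in the changes of Cfi, Serping1, Cd59a and the C1q genes was not tested.

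**Figure D4:**
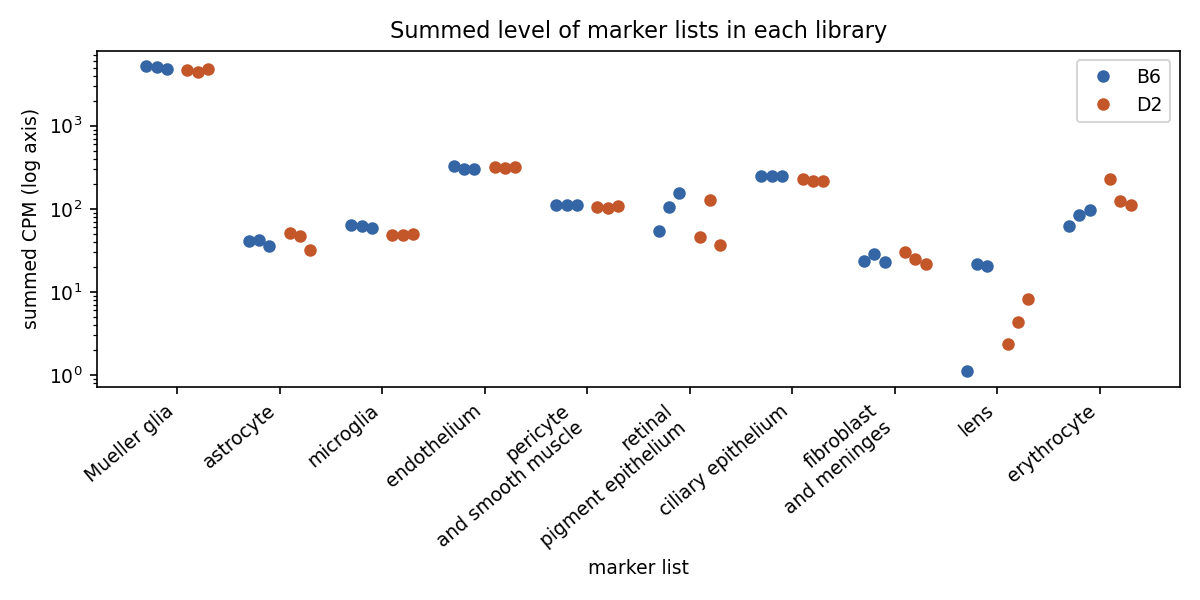
Summed CPM of each cell type marker list (vertical axis, log scale), rods and cones left out, with 1 point per library and B6 and D2 side by side. Microglia and ciliary epithelium markers sit lower in all D2 libraries than in all B6 libraries, and pigment epithelium markers vary from 37.1 to 157 CPM across the libraries.

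Of the nearest protein-coding genes on either side of the members, Cd59b was the only one that passed the test, and the 2 beside Cd55 could not be tested. Beside Cfi, Gar1 ended 4488 bases before it and Pla2g12a began 3274 bases after it, and neither passed (log2 differences of 0.17 ± 0.14 and 0.17 ± 0.08 SE, adjusted p = 0.421 and 0.121, edgeR quasi-likelihood). Within 500 kb of Cfi, 3 of 11 tested genes were called, all lower in D2, with log2 fold changes from -0.33 to -0.26. Beside Serping1, Gm19426 stood at 0.14 ± 0.23 (adjusted p = 0.698) and Ube2l6 at -0.52 ± 0.19 (adjusted p = 0.0516), and 3 genes were higher and 3 lower among 21 tested. Near Cd55, neither neighbour, Cd55b or Zp3r, was abundant enough to test, and 2 of 10 tested genes were lower. Near Cd59a, A930018P22Rik stood at -0.53 ± 0.20 (adjusted p = 0.0587), and 3 genes were higher and 3 lower among 13 tested, with Lmo2 at 0.98 ± 0.09 (adjusted p = 8.16e-07, named after its values were seen) and Cd59b the largest. Percentages called in these windows ran from 20% to 46.2%, beside 29.7% of all genes.

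**Figure D5:**
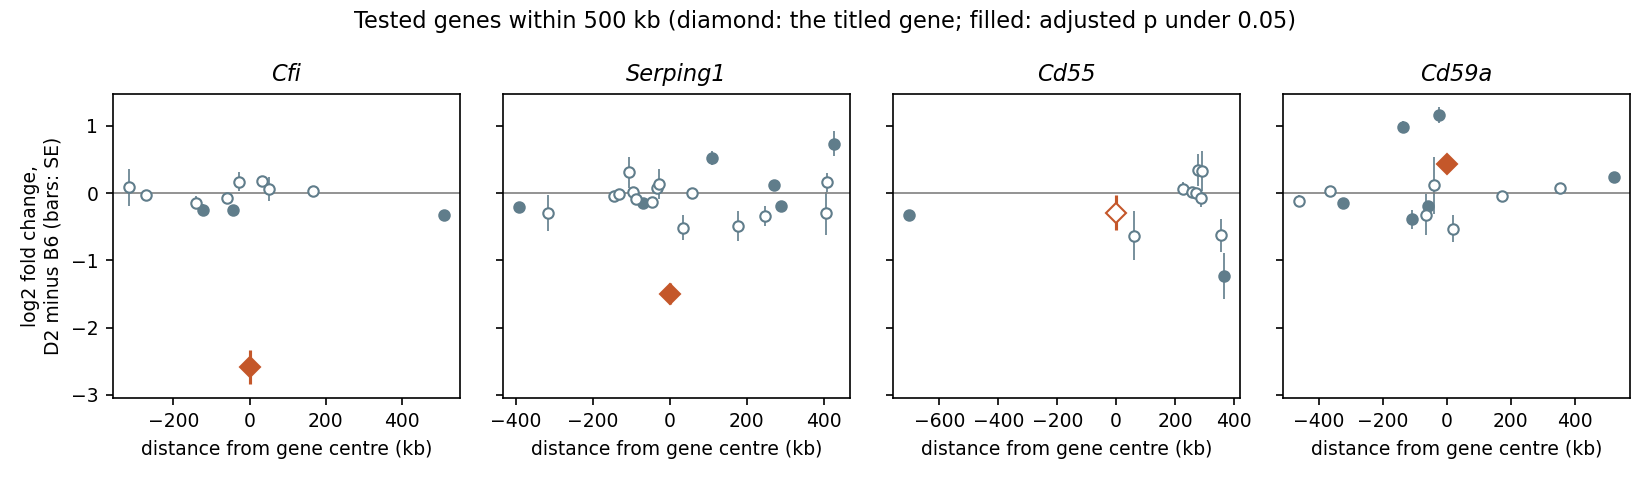
Log2 fold change, D2 minus B6 (vertical axis, bars for the SE), of tested genes that reach within 500 kb of each member, plotted by the distance between gene centres in kilobases, with the member as a diamond and filled symbols for an adjusted p under 0.05. Cfi and Serping1 stand below every other gene in their panels, and Cd59b stands above Cd59a.

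For each member, the 3 genes whose levels over the 6 libraries were most like it were named by the root mean square difference of centred log2 CPM, among tested genes of similar abundance. The 6 points of each comparison share their libraries. A log2 fold change close to that of the member follows from this choice and is not a separate result. For Cfi, out of 3448 candidates, these were Sbsn (0.226), Cyp26a1 (0.244) and Ccl28 (0.284), with log2 fold changes of -2.32, -2.74 and -2.74. For Serping1, out of 4545 candidates, they were Ltbp1 (0.117), Maob (0.129) and Zc3hav1 (0.134), with -1.35, -1.58 and -1.54. For Cd55, out of 2747 candidates, they were Echdc3 (0.117), Ccdc122 (0.118) and Socs3 (0.133), none of which passed the test between strains. For Cd59a, out of 8452 candidates, they were Nop10 (0.0245), Fzd5 (0.0265) and Fuca2 (0.0287), with log2 fold changes of 0.42, 0.40 and 0.46.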

How the data were processed

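Retina of 3 B6 and 3 D2 libraries was measured by RNA-seq. Per the labels, stranded libraries (Illumina TruSeq Total RNA chemistry) were made from RNA of integrity number 9.1 to 9.5. FastQC, STAR, SAMtools, edgeR and the build mm10 are named in the submitters' processing notes, while versions, read counter, annotation and strand setting were not given in the sources used here. Raw counts by gene symbol were deposited by the authors without normalization. They also deposited a table of scaled expression scores with standard errors and a false discovery rate, used as the authors' p-value, of their own comparison.

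Samples were grouped by labelled strain, and the counts entered edgeR 4.0.16 (R 4.3.3; filterByExpr defaults, TMM factors, quasi-likelihood fit of strain), which left 18588 genes, with Benjamini-Hochberg adjustment over all of them and a threshold of 0.05. The biological coefficient of variation was 4.40%. Scripts were tested on simulated data. Alternatives were DESeq2 1.42.0, limma-voom (limma 3.58.1), other scalings and filters, the replicate block and each library left out. GENCODE M21 (GRCm38) gave positions and the 31-base words shared between transcripts of different genes. Members and gene lists were chosen with earlier results of these data known. Named are the 4 members, their paralogues and nearest protein-coding neighbours, the 3 genes most like each, and in each list the genes that passed, up to 8 by adjusted p, and the 2 most abundant; exceptions are stated. One of the other regulators is counted in its list but not reported here.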

Additional observations from a re-analysis of the deposited data

How the results depend on the processing

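Over 13 alternatives, Cfi (log2 fold change -2.99 to -2.38, adjusted p 7.88e-13 to 1.49e-05), Serping1 (-1.67 to -1.35, 4.67e-13 to 4.69e-05) and Cd59a (0.38 to 0.45, 1.21e-12 to 3.36e-05) kept direction and call. Cd55 stayed uncalled (-0.50 to -0.05, adjusted p 0.246 to 0.919), -0.05 being without D2 replicate 3; it was not tested under the filter of 1 CPM in 3 libraries. The number of genes called ranged from 4502 to 5774 around 5524. Same-numbered libraries correlated at 0.14, 0.07 and -0.03 in their deviations from the strain means. Libraries of different number were not compared in this way, so these values cannot decide whether the numbers pair the libraries. With a replicate block, 5093 genes were called, and the members stood at -2.58 (Cfi), -1.48 (Serping1), -0.27 (Cd55) and 0.43 (Cd59a). Of the other regulators, 8 to 9 were called, and of activation and receptor genes 8 to 13. Depth limits Cd55 and D2 Cfi most, with 7 to 45 counts a library.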

Other observations

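The opposite sign of Cd59b in the authors' deposited table belonged to a small set. Of 18056 genes in both that table and the counts, 5449 were called in the counts, 5422 had the same sign in the authors' deposited table and 27 the opposite one. Of these 27, 24 (88.9%) shared at least 20% of their 31-base words with another gene, with a median of 81.9%. Among same-sign genes with a sequence, 858 of 5253 (16.3%) did, with a median of 1.66%. Cd59b shares 30.1% of its words and Cd59a 9.39%. The cause of the opposite signs was not tested.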
